A study of Mus musculus with 24 samples.

Results

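The 8 genes described here are Vegfa, Vegfb, Vegfc and Pgf, which encode secreted ligands of the vascular endothelial growth factor (VEGF) family, Flt1 and Kdr, which encode the receptor tyrosine kinases VEGFR1 and VEGFR2, and Nrp1 and Nrp2, which encode the neuropilin co-receptors. They were picked by name from the 22053 gene entries of the deposited expression file, and all 8 were present. VEGF-A draws blood vessels toward the cells that secrete it by acting on VEGFR2 on endothelium, while VEGFR1 binds VEGF-A, VEGF-B and placental growth factor (PlGF, the product of Pgf), and VEGF-C acts mainly on VEGFR3 of lymphatic vessels. Neuropilins bind some VEGF ligands and also the class 3 semaphorins, for which plexins are the signalling partners. In the growth plate, VEGF-A made by maturing cartilage cells is known to be needed for vessels to enter the cartilage.

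RNA was measured in cells of male mice on postnatal day 10 sorted with surface markers that are used to enrich skeletal stem and progenitor cells. All 24 libraries carried the genotype label WT, and every gate left out CD45, Ter119, CD31, Thy1, 6C3 and CD105 and kept CD200. The gates were then split by embigin (EMB), a cell surface glycoprotein, and in the spine also by GFP, which the series' design ties to a Zic1-Cre lineage; nothing in the labels names the reporter allele. The vertebral cells are called spine cells here, as in the tissue label. The 6 groups of 4 libraries were spine GFP+ EMB+, spine GFP+ EMB-, spine GFP- EMB+, spine GFP- EMB-, long bone (femur and tibia) EMB+ and long bone EMB-, both long bone groups being GFP-. A comparison of spine GFP+ cells with long bone therefore changes the lineage label together with the bone. The titles speak of biological replicates without naming animals, so the p-values below describe the spread between libraries.

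Expression was given as FPKM, fragment counts that the authors scaled by transcript length and sequencing yield, with read depth unknown. A library's FPKM summed to 382364 to 568495, and 10158 to 11204 genes reached 1 FPKM. Emb separated the gates: it lay between 30.1 and 56.5 FPKM in the EMB+ libraries and at 1.32 FPKM or less in the EMB- libraries. Its range of 44.4 to 55.3 FPKM in the spine GFP- EMB+ group matters because the titles of those 4 libraries call the cells Emb- and GFP+, against their cell type labels, which were used. Erythroid genes were abundant in spine GFP- EMB- and long bone EMB- cells (11 genes, 7530 to 12700 and 20900 to 44100 summed FPKM, against 127 to 990 in the other groups), and their part in the results was not tested. Of 10 chondrocyte genes 9 were in the deposited file, and all 9 passed the filter on low values. They summed to 50600 to 59900 FPKM in the spine and 28300 to 41100 in long bone. Col2a1 made up most of the sum. Matn1 went the other way, with group means of 4.93 to 40.1 FPKM in the spine and of 405 and 541 in long bone. In long bone EMB- cells replicate 4 was unlike its group, with correlations over genes of 0.925 to 0.944 to the other 3 libraries.

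Regulatory sequence is shown for 2 genes that changed in opposite directions between EMB+ and EMB- spine cells. Each sequence is the RefSeq stretch before the gene start (GRCm38.p6), 5′ to 3′ on the gene's strand, ended where the gene begins in the deposited file, with capitals marking GGGCGG on either strand, the Sp1 GC box.
Vegfa: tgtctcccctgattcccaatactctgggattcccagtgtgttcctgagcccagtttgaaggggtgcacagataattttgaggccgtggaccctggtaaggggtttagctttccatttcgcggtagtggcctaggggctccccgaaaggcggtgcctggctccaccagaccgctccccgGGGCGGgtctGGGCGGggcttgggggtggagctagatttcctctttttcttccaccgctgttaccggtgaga
Nrp2: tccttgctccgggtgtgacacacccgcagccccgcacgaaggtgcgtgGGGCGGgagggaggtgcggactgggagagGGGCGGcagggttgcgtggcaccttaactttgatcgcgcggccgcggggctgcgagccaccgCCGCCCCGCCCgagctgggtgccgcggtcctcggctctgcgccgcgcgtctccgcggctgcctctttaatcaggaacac
The Vegfa stretch lies at chr17:46032378-46032627 on the minus strand and holds 2 GC boxes. The Nrp2 stretch lies at chr1:62703067-62703284 on the plus strand and holds 4, a pair of them overlapping. All 8 members matched the RefSeq table. In windows of 250 bases, 32.7% of all 32851 RefSeq windows held a GC box, 16.6% held ACGTG (the core of the hypoxia response element), 14% held TGTGGT (a Runx motif) and 12.4% held TATAAA, each searched on both strands. Among the members ACGTG occurred once, in the window of a second, downstream Vegfa start at chr17:46025164-46025413, which also held a GC box. That window lies inside the Vegfa gene. Sequence beyond the 250 bases of a window was not searched, and no motif was tested for function. The Runx motif was in none of the members' windows, and TATAAA was in that of Flt1.

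Vegfa (chromosome 17, 46016993 to 46032377, minus strand, GRCm38) had the highest level of the ligands in all 6 groups. It averaged 11.3 ± 2.64 FPKM in spine GFP+ EMB+ cells and 16.8 ± 1.71 in spine GFP+ EMB- cells (SD, n = 4 each). In spine GFP- cells it averaged 10.9 ± 1.26 FPKM in the EMB+ gate and 24.1 ± 2.53 in the EMB- gate. In long bone the gates did not separate, at 24.1 ± 5.02 FPKM in EMB+ and 21.5 ± 5.32 in EMB- cells.

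By library, Vegfa was at 15.2, 9.71, 10.1 and 10.1 FPKM in spine GFP+ EMB+ cells, against 18.8, 15.3, 17.7 and 15.5 in spine GFP+ EMB- cells, groups that nearly touch. It was at 11.4, 10.7, 9.28 and 12.3 FPKM in spine GFP- EMB+ cells, against 24.7, 27.3, 21.2 and 23.3 in spine GFP- EMB- cells, far apart. Long bone overlapped, with 21.2, 18.6, 27.4 and 29.2 FPKM in EMB+ and 26.2, 16.2, 25.9 and 17.5 in EMB- libraries. On log2(FPKM + 1), where limma was fitted to all 11767 genes that passed a filter, the log2 change of Vegfa with EMB was -0.56 (SE 0.16, adjusted p = 0.00719) in spine GFP+ cells and -1.08 (SE 0.16, adjusted p = 6.91e-06) in spine GFP- cells. Scaling matters here, because the median gene was 0.32 and 0.30 higher in the EMB+ gate of these comparisons, and relative to that median Vegfa was at -0.87 and -1.38. In long bone it changed by 0.17 (95% interval -0.17 to 0.51, adjusted p = 0.454). The EMB effect differed between spine GFP- and long bone cells by -1.25 (SE 0.23, adjusted p = 0.000251), and between spine GFP+ and long bone cells by -0.72 (SE 0.23, adjusted p = 0.0189). Between spine GFP+ and GFP- cells the difference of 0.52 (SE 0.23, adjusted p = 0.268) was not called.

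**Figure D1:**
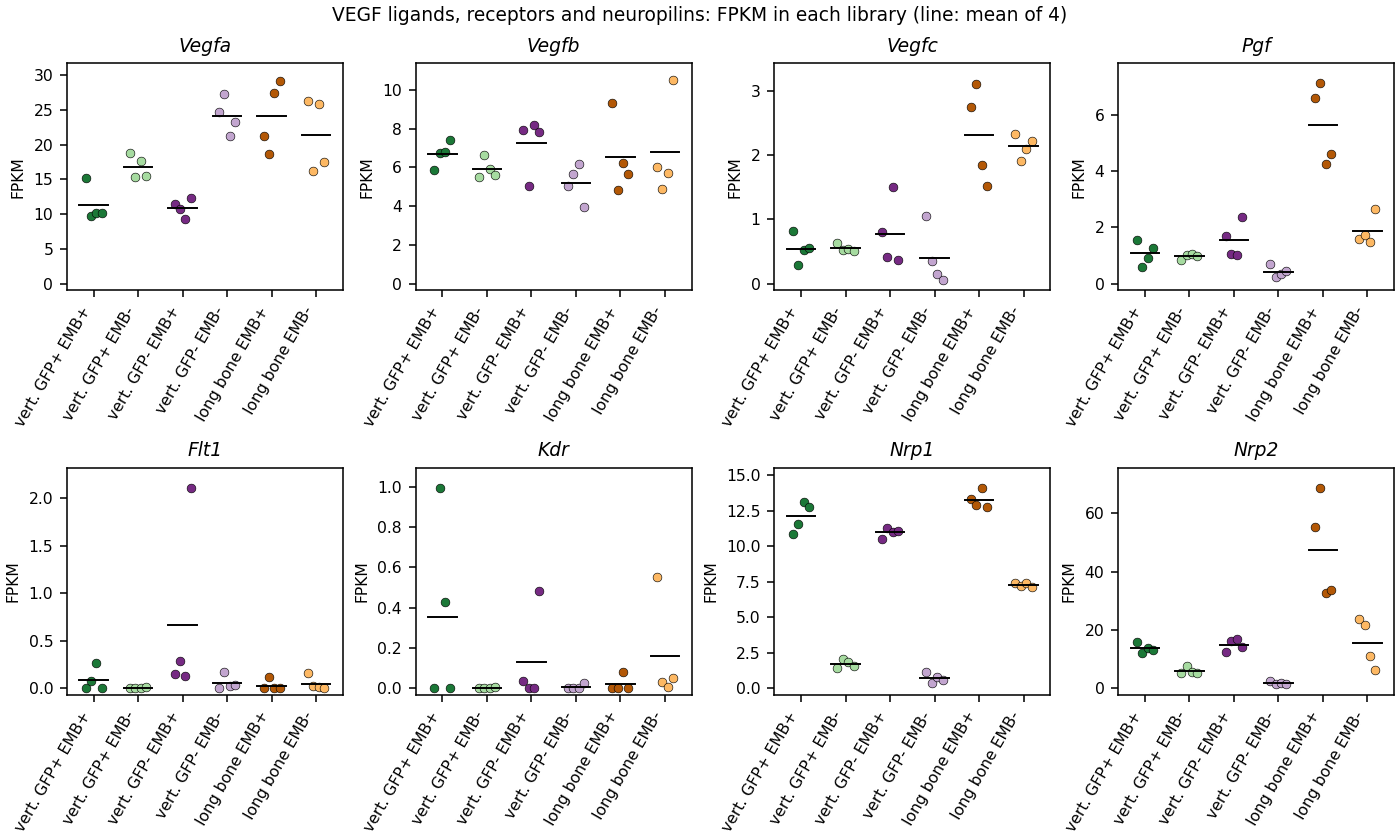
FPKM of the 8 genes (vertical axes, linear) in each of the 24 libraries, grouped by site, GFP and EMB; points are libraries and lines are means of 4. Nrp1 and Nrp2 are higher in the EMB+ gate at each site, Vegfa is lower in the spine EMB+ gates, and Vegfc and Pgf have their highest means in long bone.

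Between bones, Vegfa was lower in the spine EMB+ gates than in long bone EMB+ cells, with log2 changes of -1.03 (adjusted p = 2.82e-05) for GFP+ and -1.06 (adjusted p = 2.57e-05) for GFP- cells, with no overlap of libraries. In the EMB- gates the changes were -0.31 (adjusted p = 0.129) and 0.19 (adjusted p = 0.359). The first of these was called with library weights (-0.56, adjusted p = 0.000514) and without long bone EMB- replicate 2 (-0.42, adjusted p = 0.043). The second reached 0.47 (adjusted p = 0.0221) with median-ratio scaling and 0.56 (adjusted p = 0.00653) with quantile normalization. Between spine GFP+ EMB- and GFP- EMB- cells Vegfa differed by -0.49 with an adjusted p of 0.0645, or 0.0332 when the replicate number was a block, 0.0046 with only the compared groups and 0.0135 with library weights. Ordered by mean, spine GFP- EMB- and long bone EMB+ cells came first, then long bone EMB-, spine GFP+ EMB-, spine GFP+ EMB+ and spine GFP- EMB+ cells. Neighbours overlapped except the spine GFP+ EMB- and EMB+ pair.

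Vegfb (chromosome 19, 6982473 to 6987651), whose product binds VEGFR1, varied little between groups. Its group means ran from 5.22 ± 0.961 FPKM in spine GFP- EMB- to 7.24 ± 1.47 in spine GFP- EMB+ cells (SD, n = 4 each), every neighbour in the order overlapped, and it was called in none of the 9 comparisons by limma. At an unadjusted p under 0.05 it passed 1, EMB+ against EMB- in spine GFP- cells (0.40, 95% interval 0.01 to 0.79, adjusted p = 0.0769). That change was called with only the compared groups (adjusted p = 0.0437), with library weights (0.016) and without spine GFP- EMB+ replicate 2 (0.54, adjusted p = 0.0236). Single libraries ranged from 3.96 to 10.5 FPKM, the highest being long bone EMB- replicate 4.

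Pgf (chromosome 12, 85166639 to 85177296) was highest in long bone EMB+ cells. Those libraries had 6.59, 7.11, 4.24 and 4.6 FPKM and long bone EMB- libraries 1.6, 1.72, 1.49 and 2.67. Every long bone EMB+ library exceeded all 20 other libraries. Spine GFP- cells had 1.7, 1.07, 1.02 and 2.38 FPKM in the EMB+ gate and 0.703, 0.242, 0.344 and 0.452 in the EMB- gate, also apart. Spine GFP+ cells had 1.56, 0.611, 0.924 and 1.27 FPKM in the EMB+ gate and 0.826, 1.01, 1.06 and 0.994 in the EMB- gate, which overlapped.

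Pgf rose with EMB by 1.20 (SE 0.18, adjusted p = 1.22e-05) in long bone and by 0.80 (SE 0.18, adjusted p = 0.000841) in spine GFP- cells. In spine GFP+ cells it changed by 0.07 (95% interval -0.31 to 0.45, adjusted p = 0.783). The EMB effect of spine GFP+ cells was smaller than that of long bone cells, a difference of -1.14 (SE 0.26, adjusted p = 0.00149). Between spine GFP+ and GFP- cells the difference of -0.74 (SE 0.26, adjusted p = 0.126) was not called. It was called with a pseudocount of 0.1 (adjusted p = 0.0359) and with library weights (0.0247). Pgf was lower in spine than in long bone EMB+ cells, with log2 changes of -1.66 (adjusted p = 1.49e-07) for GFP+ and -1.39 (adjusted p = 2.96e-06) for GFP- cells. In EMB- cells it was also lower, at -0.99 (adjusted p = 9.87e-05) for GFP- cells. For GFP+ EMB- cells the change of -0.53 (adjusted p = 0.0212) was lost with median-ratio scaling (adjusted p = 0.122), with quantile normalization (0.457), without replicate 1 of spine GFP+ EMB- cells (0.0526) and when replicate 4 of long bone EMB- cells was left out (0.079).

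Vegfc (chromosome 8, 54077606 to 54187096), the lymphatic ligand, was low, had higher levels in long bone and was called in none of the 3 EMB comparisons. In spine GFP- cells its EMB change of 0.34 (adjusted p = 0.156) was called without spine GFP- EMB- replicate 1 (0.54, adjusted p = 0.0215). It averaged 0.545 ± 0.216 and 0.549 ± 0.0577 FPKM in spine GFP+ EMB+ and EMB- cells, 0.768 ± 0.524 and 0.404 ± 0.458 in spine GFP- EMB+ and EMB- cells, and 2.3 ± 0.747 and 2.14 ± 0.177 in long bone EMB+ and EMB- cells (SD, n = 4 each). All 8 long bone libraries, at 1.52 to 3.11 FPKM, exceeded all 16 spine libraries, at 0.0512 to 1.5. The gene passed the filter of 1 FPKM in 4 libraries through long bone, since all 8 libraries there and 2 of the 16 in the spine reached 1 FPKM, so its differences between bones describe a gene that was tested because it is high in long bone. Spine minus long bone, it had log2 differences of -1.08 (adjusted p = 0.000195) and -0.92 (0.00131) for GFP+ and GFP- EMB+ cells and of -1.02 (0.000157) and -1.21 (2.41e-05) for GFP+ and GFP- EMB- cells. Adding 1 to such low values understates the change. Vegfc and Pgf did not pass a stricter filter of 5 FPKM in 4 libraries.

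Marker genes also stood at other levels in the 2 bones. Osteoblast genes (9 of 9 passed the filter) summed to 5090 to 6240 FPKM in spine GFP+ EMB+ and 6180 to 8120 in spine GFP- EMB+ cells, against 14700 to 31700 in long bone EMB+ cells. In the EMB- gates they summed to 7120 to 7780 and 3730 to 4570 FPKM in spine GFP+ and GFP- cells, against 11900 to 22000 in long bone cells. Among them Col1a1 averaged 2400 and 3030 FPKM in spine GFP+ and GFP- EMB+ cells, against 13300 in long bone EMB+ cells. Runx2 (36.5 and 38.7 against 41.1) and Sp7 (63.0 and 64.1 against 62.3) differed little there. Of the 9, 7 and 6 were called lower in spine GFP+ and GFP- EMB+ cells (12.9% and 10.6% of all genes), and none higher. In EMB- cells 8 and 9 were lower (40.4% and 40.2%), or 5 and 9 with median-ratio scaling. The part of osteoblast genes in the ligand differences was not tested. In sorted bulk RNA, fewer cells of a type and less RNA per cell cannot be told apart.

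Flt1 and Kdr were near 0 in most libraries. Flt1 (chromosome 5, 147561604 to 147726011) reached 1 FPKM in 1 library, spine GFP- EMB+ replicate 4, at 2.1 FPKM. The other 3 libraries of that group had 0.151, 0.292 and 0.131 FPKM, and no library outside it exceeded 0.272. Kdr (chromosome 5, 75932827 to 75978458) was listed at 0 in 13 of 24 libraries and peaked at 0.992 FPKM in spine GFP+ EMB+ replicate 2. Neither gene passed the filter, so neither was tested. Flt4 (VEGFR3) was listed at 0 in 20 libraries, with 1.12 FPKM in long bone EMB- replicate 1, and Vegfd, another lymphatic ligand, stayed at or below 0.97 FPKM.

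Endothelial markers were read beside the receptors. Of 15 endothelial markers 4 passed the filter, and the sum of all 15 was 4.47 to 14.9 FPKM in spine GFP+ EMB+, 3.98 to 6.43 in spine GFP+ EMB-, 4.42 to 33.2 in spine GFP- EMB+, 4.39 to 7.5 in spine GFP- EMB-, 6.71 to 17.2 in long bone EMB+ and 10.4 to 16.3 in long bone EMB- cells. The library with the highest sum, 33.2 FPKM, was the one with Flt1 at 2.1, and it had Pecam1 (CD31, gated out) at 4.05 FPKM. Kdr lay at 0.992 and 0.429 FPKM in spine GFP+ EMB+ replicates 2 and 3, where the sum was 14.2 and 14.9 FPKM, and was listed at 0 in replicates 1 and 4, where it was 4.77 and 4.47. In long bone EMB- replicate 1 Kdr was at 0.554 FPKM, Flt4 at 1.12 and the sum at 16.3. Tie1, Emcn, Robo4 and Sox17 were listed at 0 in all 4 spine GFP+ EMB- libraries, and Tie1 and Sox17 in all 4 long bone EMB+ libraries. The sum did not always go with the receptors: long bone EMB+ replicate 4 had 17.2 FPKM with Flt1 and Kdr both listed at 0. In that library 7 of the 15 markers were above 0, with Cdh5 listed at 0 and Pecam1 at 0.293 FPKM. Erg, Plvap and Egfl7 had the highest means of the 15 in long bone EMB+ cells, at 4.85, 4.1 and 2.05 FPKM. All 15 were above 0 in the library with Flt1 at 2.1 FPKM, and 14 in spine GFP+ EMB+ replicates 2 and 3. The part of endothelial RNA in the receptor values was not tested.

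**Figure D2:**
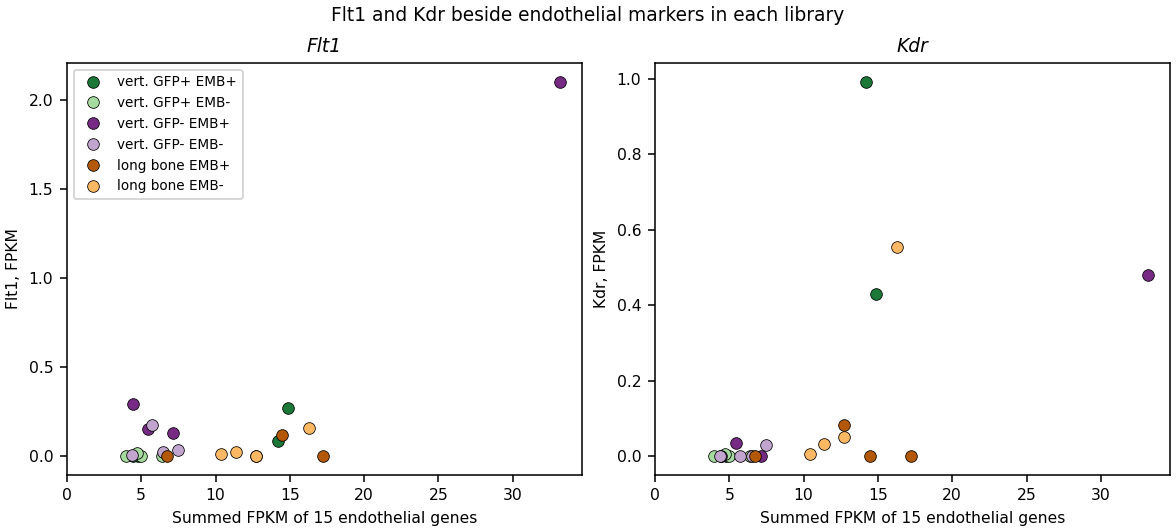
Flt1 (left) and Kdr (right) in FPKM against the summed FPKM of 15 endothelial genes, 1 point per library, coloured by group. The library at 33.2 FPKM of endothelial genes is the one with Flt1 at 2.1 FPKM, and Kdr stays below 1 FPKM in every library.

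Nrp1 (chromosome 8, 128358604 to 128503363) encodes the co-receptor best known for binding VEGF-A and semaphorin 3A. On log2(FPKM + 1) it was the member with the largest EMB change in the spine, while in long bone the changes of Nrp2 and Pgf were larger. In spine GFP- cells not every alternative kept that order, the lowest change being 1.47 for Nrp1 and 1.52 for Nrp2. Spine GFP+ EMB+ libraries had 10.9, 11.6, 13.1 and 12.8 FPKM, against 1.47, 2.04, 1.86 and 1.58 in spine GFP+ EMB- libraries. Spine GFP- EMB+ libraries had 10.5, 11.3, 11 and 11.1 FPKM, against 1.19, 0.398, 0.794 and 0.622 in spine GFP- EMB- libraries. Long bone EMB+ libraries had 13.3, 12.9, 14.1 and 12.8 FPKM, against 7.41, 7.19, 7.41 and 7.14 in long bone EMB- libraries. The gates were apart in all 3 populations: the 12 EMB+ libraries spanned 10.5 to 14.1 FPKM and the 12 EMB- libraries 0.398 to 7.41. A microRNA gene, Mir1903, shares 80 bases of an Nrp1 exon on the same strand.

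Nrp1 rose with EMB by 2.26 (SE 0.12, adjusted p = 1.24e-13) in spine GFP+ cells, 2.79 (SE 0.12, adjusted p = 1.52e-15) in spine GFP- cells and 0.78 (SE 0.12, adjusted p = 1.01e-05) in long bone. Relative to the median gene the spine changes were 1.94 and 2.49. The EMB effect exceeded that of long bone by 1.48 (adjusted p = 1.65e-07) in GFP+ and by 2.01 (adjusted p = 3.21e-09) in GFP- cells. The bones differed in the EMB- gate, where Nrp1 was lower in spine cells, with log2 changes of -1.60 (adjusted p = 3.75e-11) for GFP+ and -2.26 (adjusted p = 1.27e-13) for GFP- cells. In the EMB+ gate the changes were -0.13 (95% interval -0.37 to 0.12, adjusted p = 0.516) and -0.26 (95% interval -0.50 to -0.01, adjusted p = 0.15). Within the spine EMB- gate Nrp1 was higher in GFP+ than in GFP- cells by 0.66 (adjusted p = 0.000303).

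Nrp2 (chromosome 1, 62703285 to 62818695), which binds VEGF-C and semaphorin 3F, reached its highest levels in long bone EMB+ cells. Those libraries had 55.4, 68.7, 32.7 and 33.8 FPKM, against 23.8, 21.7, 11 and 6.42 in long bone EMB- libraries. Spine GFP+ EMB+ libraries had 15.8, 12.1, 14.0 and 13.3 FPKM, against 5.2, 7.68, 5.55 and 5.34 in spine GFP+ EMB- libraries. Spine GFP- EMB+ libraries had 12.5, 16.2, 17.1 and 14.3 FPKM, against 2.7, 1.66, 2.03 and 1.53 in spine GFP- EMB- libraries. The gates were apart in each population, and within both long bone groups replicates 1 and 2 exceeded replicates 3 and 4. The antisense gene Gm29083 overlaps Nrp2 without sharing exon bases, and the library kit does not mark strand.

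Nrp2 rose with EMB by 1.10 (SE 0.27, adjusted p = 0.00181) in spine GFP+ cells, 2.44 (SE 0.27, adjusted p = 6.41e-08) in spine GFP- cells and 1.63 (SE 0.27, adjusted p = 3.69e-05) in long bone. The first of these was 0.75 (adjusted p = 0.0595) with median-ratio scaling, while relative to the median gene the spine changes were 0.78 and 2.13. The EMB effect in GFP+ cells was smaller than in GFP- cells, a difference of -1.34 (SE 0.38, adjusted p = 0.0414), a call that 17 of 25 alternatives lost, among them 14 of the 16 that left out a library (adjusted p = 0.0521 to 0.0981). With the replicate block it held (adjusted p = 0.0213). Nrp2 was lower in spine than in long bone cells in all 4 comparisons, with log2 changes of -1.65 (adjusted p = 4.34e-05) and -1.54 (0.000133) for GFP+ and GFP- EMB+ cells and of -1.12 (0.00133) and -2.35 (1.71e-07) for GFP+ and GFP- EMB- cells; the libraries overlapped between spine GFP+ EMB- and long bone EMB- cells. In spine EMB- cells it was higher in GFP+ than in GFP- cells by 1.22 (adjusted p = 0.00309), or by 0.65 (adjusted p = 0.0828) with a pseudocount of 5.

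**Figure D3:**
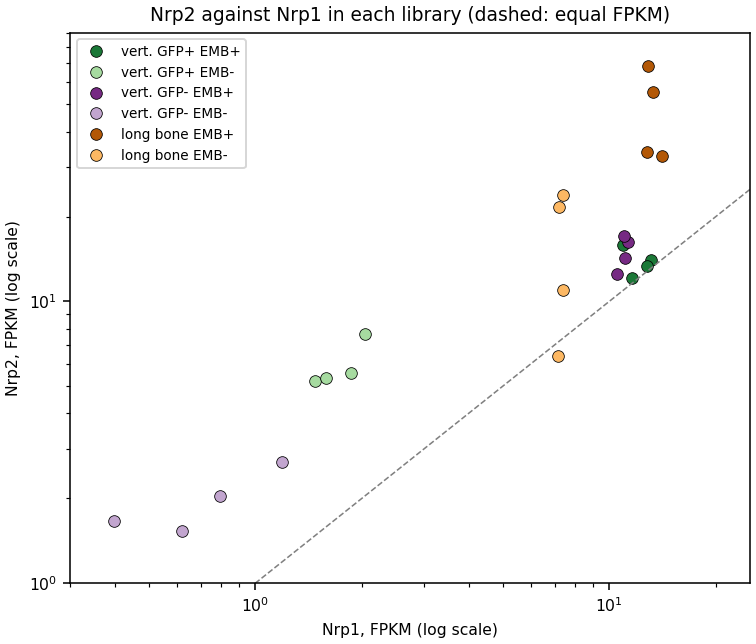
Nrp2 against Nrp1, both in FPKM on log axes, for each library, coloured by group; the dashed line marks equal FPKM. EMB+ libraries of all sites share Nrp1 levels between 10.5 and 14.1 FPKM, while Nrp2 there spans 12.1 to 68.7 FPKM.

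The ratio of the neuropilins differed with EMB in the spine, where the gates did not overlap. Nrp2 was 1.15 ± 0.199 times Nrp1 in spine GFP+ EMB+ cells and 3.42 ± 0.329 times in spine GFP+ EMB- cells (ratio of FPKM per library, SD, n = 4). It was 1.37 ± 0.157 times Nrp1 in spine GFP- EMB+ cells and 2.86 ± 0.874 times in spine GFP- EMB- cells. In long bone the ratio was 3.61 ± 1.4 in EMB+ and 2.15 ± 1.14 in EMB- cells, which overlapped. These ratios were chosen after values were seen and were not tested.

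Across the members, limma called 3 of the 6 tested members between EMB+ and EMB- cells of the spine GFP+ population, 2 higher and 1 lower, where 50.0% of all tested genes were called, 42.1% higher and 7.85% lower. In spine GFP- cells 4 were called, 3 higher and 1 lower, against 52.3% of all genes, 41.7% higher and 10.6% lower. In long bone 3 were called, all higher, against 33.5% of all genes, 17.5% higher and 16.0% lower. In the 2 spine populations these shares of 6 members lie near those of all genes. Between GFP+ and GFP- cells limma called 0 of 6 members in the EMB+ gate, where 2.10% of genes were called (0.391% higher, 1.71% lower), and no member passed an unadjusted p under 0.05. In the EMB- gate it called 2, both higher, against 8.47% of all genes (2.25% higher, 6.22% lower).

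Spine against long bone gave 4 called members in each of 4 comparisons, all lower, with Vegfc among them, which was tested only because of its long bone level. In EMB+ cells 21.5% of all genes were called for GFP+ (8.66% higher, 12.9% lower) and 19.1% for GFP- cells (8.49% higher, 10.6% lower). In EMB- cells 47.8% were called for GFP+ (7.40% higher, 40.4% lower) and 48.2% for GFP- cells (8.05% higher, 40.2% lower), and the median gene itself changed by -0.27 and -0.28. For the EMB effect itself, 1 member differed between spine GFP+ and GFP- cells (4.87% of genes), 2 between spine GFP- and long bone cells (29.8%) and 3 between spine GFP+ and long bone cells (30.5%). Comparisons that share a group are not independent of each other.

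**Figure D4:**
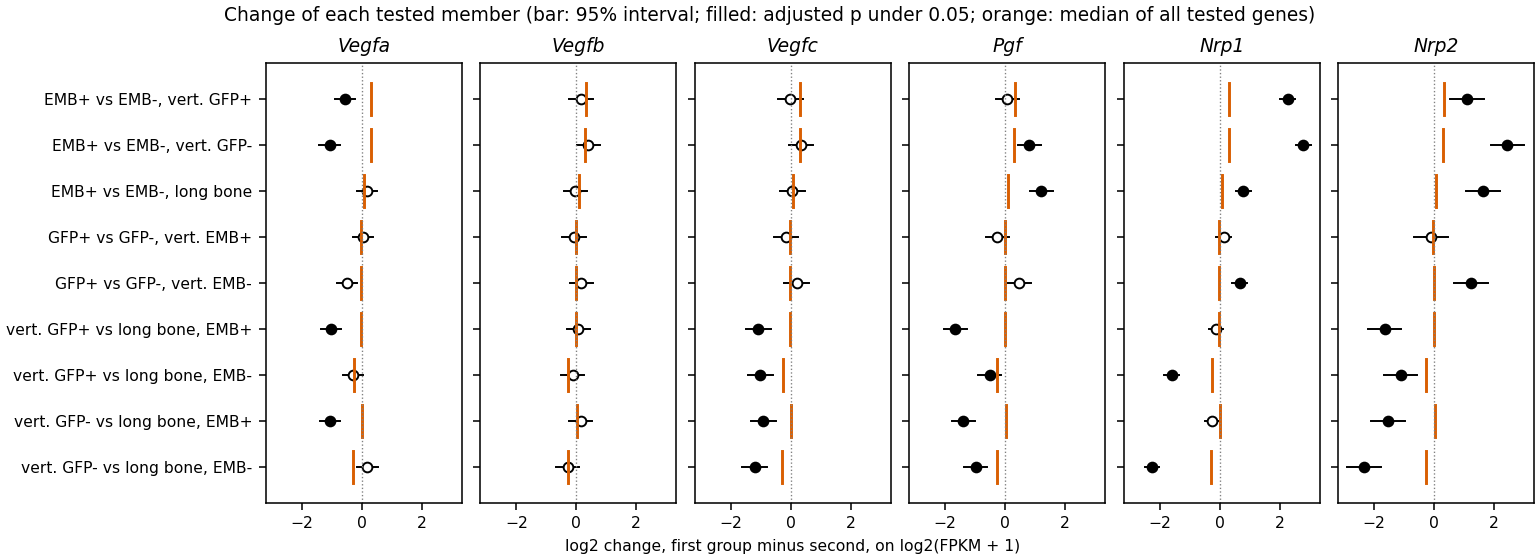
log2 change of the 6 tested members (first named group minus second, on log2(FPKM + 1)) in 9 comparisons, with 95% intervals; filled points have an adjusted p under 0.05 and orange ticks mark the median of all tested genes. Nrp1 and Nrp2 lie to the right of zero in all 3 EMB comparisons, and Vegfc and Pgf to the left in all 4 comparisons with long bone.

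Several lists of cell type markers also differed between the EMB gates. Hypertrophic chondrocyte genes (7 of 7 passed the filter) summed to 2040 to 2510 FPKM in spine GFP+ EMB+ and 863 to 959 in spine GFP+ EMB- cells, to 1980 to 2230 and 623 to 845 in spine GFP- EMB+ and EMB- cells, and to 2000 to 3060 and 1310 to 1510 in long bone EMB+ and EMB- cells. Col10a1, the collagen of hypertrophic cartilage, averaged 122 ± 26.6 FPKM in spine GFP+ EMB+ and 2.75 ± 1.1 in spine GFP+ EMB- cells (SD, n = 4). Of the 7, 6 were called higher in each population and 0 lower, while 1 was lower in spine GFP+ cells with median-ratio scaling. Ibsp averaged 429 FPKM in spine GFP+ EMB+ and 532 in spine GFP+ EMB- cells. Tendon and fibroblast genes (9 of 9 passed) ran the other way, at 888 to 1010 FPKM in spine GFP+ EMB+ cells, against 2410 to 2860 in spine GFP+ EMB- cells, 766 to 1070 against 1920 to 2550 in spine GFP- cells and 1740 to 1970 against 2360 to 3400 in long bone cells. Pericyte and smooth muscle genes (7 of 8 passed) had a median sum of 151 FPKM in spine GFP+ EMB+ and 83.7 in spine GFP+ EMB- cells, and of 159 against 73.3 in spine GFP- cells. In long bone the sum was 136 to 177 FPKM in EMB+ and 110 to 154 in EMB- cells. Cspg4 made up most of the sum, at a mean of 134 against 54.7 FPKM in spine GFP+ cells. Acta2 (3.75 against 9.76), Pdgfrb (13.6 against 17.9), Notch3 and Kcnj8 went the other way there, while Rgs5, Abcc9 and Myh11 did not. Of 7 tested, 2 rose in each population, while 1 fell in spine GFP+ cells and 1 in long bone cells. With median-ratio scaling 1, 2 and 1 rose and 2, 0 and 1 fell in spine GFP+, spine GFP- and long bone cells. Leukocyte genes, 10 of 14 passing, summed to 452 to 3310 FPKM in spine GFP- EMB+ cells and 138 to 561 in spine GFP- EMB- cells. Cell cycle genes (10 of 10 passed) moved in different directions: all 10 rose with EMB in spine GFP+ cells, 3 fell in spine GFP- cells (7 with median-ratio scaling) and all 10 fell in long bone cells. They summed to at least 148 FPKM in every spine GFP+ EMB+ library and at most 53.5 in spine GFP+ EMB- libraries, to 156 to 195 against 216 to 294 in spine GFP- cells and to 106 to 113 against 402 to 1130 in long bone cells. Of all tested genes 42.1% rose and 7.85% fell with EMB in spine GFP+ cells, and 41.7% rose and 10.6% fell in spine GFP- cells. In long bone cells 17.5% rose and 16.0% fell. The part of all these lists in the changes of the members was not tested.

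Across all 24 libraries on log2(FPKM + 1), Pearson's r was 0.87 between Nrp1 and Nrp2, 0.839 between Pgf and Nrp2 and -0.396 between Vegfa and Nrp1, described without a test, since the libraries share 6 groups of 4. Among 11428 other genes, those most like Nrp1 were Bmp7 (r 0.986), a bone morphogenetic protein, Phc2 (0.979), a Polycomb subunit, and Gpc1 (0.976), a glypican. Among those most like Nrp2 were S1pr1 (0.982), a sphingosine 1-phosphate receptor, and Epb41l2 (0.98). Ibsp (0.909), bone sialoprotein, led for Vegfc, Lurap1l (0.966) for Pgf, and Boc (0.845), a hedgehog co-receptor, for Vegfa, while the best match of Vegfb reached 0.789 (Cacfd1).

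The semaphorins and plexins that share the neuropilins split by direction. Of 10 tested, 4 rose and 5 fell with EMB in spine GFP+ cells, 3 rose and 3 fell in spine GFP- cells, and 3 rose and 3 fell in long bone cells, with medians of 0.02, -0.02 and -0.10 against 0.32, 0.30 and 0.08 for all genes. With median-ratio scaling 3 rose and 5 fell, 1 rose and 4 fell, and 2 rose and 3 fell in the same order. Before that scaling, 42.1%, 41.7% and 17.5% of all genes rose and 7.85%, 10.6% and 16.0% fell. Sema3b averaged 4.55 ± 1.12 FPKM in spine GFP+ EMB+ and 32.5 ± 2.82 in spine GFP+ EMB- cells (SD, n = 4), a log2 change of -2.61 (adjusted p = 7.59e-11). Sema3d, at 68.9 ± 13.8 and 22.2 ± 3.42 FPKM in the same gates, rose by 1.58 (adjusted p = 7.26e-06). In long bone Sema3f, a ligand of Nrp2, fell by 1.28 (adjusted p = 1.52e-05) and Sema3c fell by 1.22 (adjusted p = 0.000546).

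Vegfa is induced by hypoxia, and so are the genes of another list. Of 10 tested, 0 rose and 5 fell in spine GFP+ cells and 0 rose and 7 fell in spine GFP- cells, with list medians of -0.43 and -0.49 against 0.32 and 0.30 for all genes. In long bone 3 rose and 1 fell, with a median of -0.06 against 0.08. Among all genes 42.1% rose and 7.85% fell in spine GFP+, 41.7% and 10.6% in spine GFP- and 17.5% and 16.0% in long bone cells. Car9, carbonic anhydrase 9, averaged 0.749 ± 0.27 FPKM in spine GFP+ EMB+ and 17.9 ± 2.18 in spine GFP+ EMB- cells (SD, n = 4), a log2 change of -3.44 (adjusted p = 1.6e-12). Bnip3, a mitophagy receptor, fell by 1.22 (adjusted p = 1.75e-06) and Slc2a1, the glucose transporter GLUT1, fell by 0.72 (adjusted p = 0.000896). With median-ratio scaling 9 of 10 fell in each spine population, and in long bone 3 rose and 2 fell. The shares of all genes above are at the scale of the deposited values, and none is given for that scaling. The EMB effect on Car9 differed from that of long bone by -2.93 (adjusted p = 1.99e-08) in GFP+ and -3.72 (adjusted p = 1.13e-09) in GFP- cells. Ldha and Pgk1, both glycolytic enzymes, rose in long bone by 0.62 (adjusted p = 0.00242) and 0.47 (adjusted p = 0.0167). P4ha1 also rose there, by 0.52 (adjusted p = 0.000766), while Adm changed by -1.19 (adjusted p = 8.41e-05).

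Of 8 tested oxygen sensing genes, Egln3, a prolyl hydroxylase, fell in all 3 populations, with log2 changes of -0.85 (adjusted p = 0.0043), -1.04 (0.000624) and -0.76 (0.0126) in spine GFP+, spine GFP- and long bone cells. Hif1a averaged 61.3 ± 7.27 FPKM in spine GFP- EMB+ and 94.3 ± 14.5 in spine GFP- EMB- cells (SD, n = 4; -0.61, adjusted p = 0.0237). In all, 1 rose and 1 fell in spine GFP+ cells, 1 rose and 3 fell in spine GFP- cells and 0 rose and 1 fell in long bone. With median-ratio scaling 3, 4 and 1 fell and 0 rose. The shares of all genes before that scaling were 42.1%, 41.7% and 17.5% higher and 7.85%, 10.6% and 16.0% lower.

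**Figure D5:**
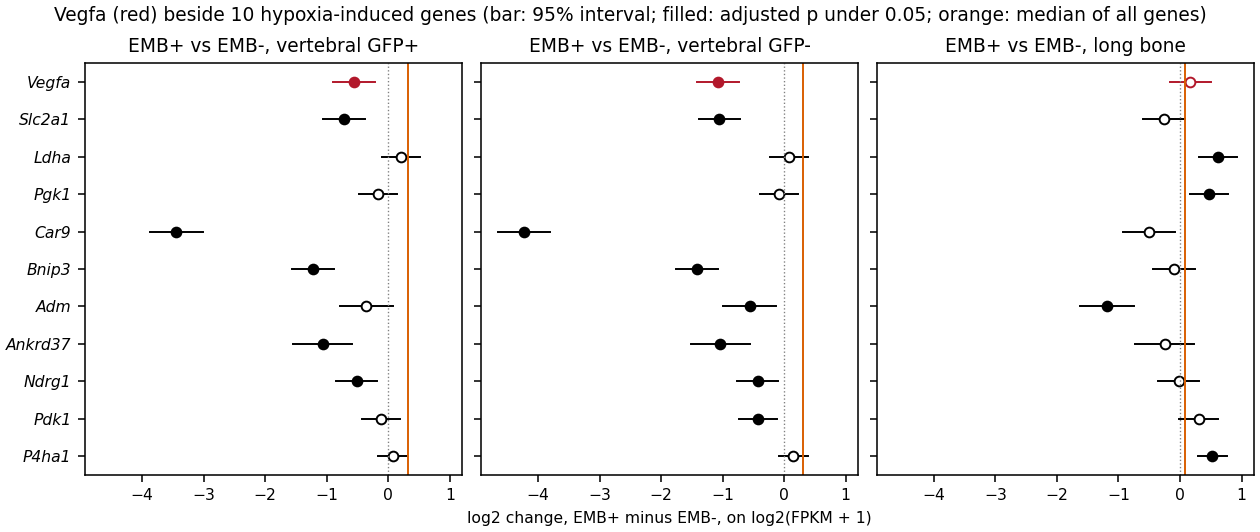
log2 change between EMB+ and EMB- cells (horizontal axis, on log2(FPKM + 1)) of Vegfa, in red, and 10 hypoxia-induced genes in 3 populations, with 95% intervals; filled points have an adjusted p under 0.05 and the orange line is the median of all tested genes. Vegfa, Slc2a1, Car9, Bnip3, Ankrd37 and Ndrg1 lie left of zero with filled points in both spine panels; in long bone all 6 points are open, and Vegfa lies right of zero at 0.17.

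A further list holds proteases that release or activate VEGF ligands. Of 7 tested, 5 rose with EMB in spine GFP+, 5 in spine GFP- and 4 in long bone cells, and none fell at the scale of the deposited values, while 1 fell in spine GFP+ cells with median-ratio scaling. In the same comparisons 42.1%, 41.7% and 17.5% of all genes rose and 7.85%, 10.6% and 16.0% fell. The list medians were 0.84, 0.84 and 0.33, against 0.32, 0.30 and 0.08 for all genes. Mmp9, which frees VEGF from matrix, rose by 2.33 (adjusted p = 1.4e-05), 2.68 (1.6e-06) and 2.47 (7.93e-06) in spine GFP+, spine GFP- and long bone cells. Adamts3, which processes VEGF-C, averaged 14.6 ± 1.18 FPKM in spine GFP+ EMB+ and 3.99 ± 0.274 in spine GFP+ EMB- cells (SD, n = 4). Against long bone, 5 of the 7 were lower and 1 higher in spine EMB+ cells of either GFP state. In spine EMB- cells of either state 6 were lower (5 lower and 1 higher for GFP+ with median-ratio scaling). Of all genes 12.9% and 10.6% were lower and 8.66% and 8.49% higher for GFP+ and GFP- EMB+ cells. For EMB- cells 40.4% and 40.2% were lower and 7.40% and 8.05% higher. Pcsk5, a proprotein convertase, was at 2.23 ± 0.312 FPKM in spine GFP+ EMB+ cells, against 14.6 ± 3.28 FPKM in long bone EMB+ cells.

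Other angiogenic ligands moved both ways with EMB, 3 of 10 up and 1 down in spine GFP+ (3 and 2 with median-ratio scaling), 7 up and 1 down in spine GFP- (3 and 1 with median-ratio scaling) and 4 up and 1 down in long bone cells (3 and 1 with median-ratio scaling). Their medians were 0.19, 0.57 and 0.33, beside the same 0.32, 0.30 and 0.08 for all genes. In these 3 comparisons 42.1%, 41.7% and 17.5% of all genes were called higher and 7.85%, 10.6% and 16.0% lower. Ctgf, a matricellular protein, averaged 2000 ± 307 FPKM in spine GFP+ EMB+ and 484 ± 66.3 in spine GFP+ EMB- cells (SD, n = 4). Apln, which encodes the endothelial ligand apelin, changed by -1.47 (adjusted p = 2.2e-06) and -1.89 (adjusted p = 3.48e-08) in spine GFP+ and GFP- cells. Of 9 secreted inhibitors of angiogenesis 2 rose and 3 fell in each population, with medians of -0.35, 0.03 and -0.24. Tnmd, the tendon protein tenomodulin, and Thbs2, thrombospondin 2, fell in all 3, Tnmd by 3.70 in spine GFP+ cells (adjusted p = 5.23e-13); with median-ratio scaling 1 rose in each, and 5, 5 and 3 fell.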

How the data were processed

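RNA of sorted cells was extracted with an RNeasy kit, and libraries were made with SMART-Seq v4 and Nextera XT, per the labels' protocols. GRCm38, Cufflinks 2.1.1, STAR 2.5.2 and bcl2fastq 2.19 are listed in the submitters' processing notes. The authors deposited FPKM per gene and library in a table that its name limits to protein-coding genes. FPKM depends on all other genes of a library, read depth is unknown, and an exact 0 may be a failed estimate. Every value of the members was marked OK by the submitters. Of 22053 entries, 46 with a repeated identifier, 56 with a repeated symbol and 3 genes with a failed value were left out, which left 21948.

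Testing covered the 11767 genes, 6 of the 8 members among them, that reached 1 FPKM in 4 or more libraries. R 4.3.3 and limma 3.58.1 were used on log2(FPKM + 1), all 6 groups entering 1 model that had 18 residual degrees of freedom, with trended and robust empirical Bayes moderation. Two-sided p-values were adjusted by Benjamini-Hochberg (threshold 0.05) over all tested genes in each of 9 comparisons and 3 differences of EMB effects. The fit was tested on simulated data. A change on this scale understates that of low genes.

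The members and gene lists were chosen with earlier results of these data known. All members were named, along with up to 4 genes per list and comparison with the smallest adjusted p and the 3 genes most correlated with a member, leaving out predicted genes; not all of these are reported here. Emb, Flt4, Vegfd, Pecam1 and some genes of the marker lists serve checks. The alternatives tried were a pseudocount of 0.1 or 5, no filter (17614 genes), 5 FPKM in 4 libraries (8056 genes), median-ratio scaling over 4841 genes, quantile normalization, library weights, a model of the compared groups alone, a replicate block, and each library left out. Shares of all genes are given only at the scale of the deposited values, also where a list is counted with median-ratio scaling.

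Replicate numbers in the titles were checked by correlating deviations from group means between same-numbered libraries. The correlations were 0.169 to 0.337 between spine GFP+ and GFP- EMB+ cells and 0.13 to 0.292 between the EMB- cells. Between the EMB gates they were 0.135 to 0.236 in spine GFP- cells and 0.0971 to 0.279 in spine GFP+ cells. Libraries with different numbers were not compared, so whether the numbers mark shared animals was not tested. The titles of long bone EMB+ libraries all carry the number 1, so their numbers here follow accession order, and the block fit left this group out. Long bone EMB- libraries entered the block fit in the blocks of the same-numbered spine libraries. Their deviations correlated with those of the spine libraries at -0.297 to 0.395. Promoter windows came from RefSeq on GRCm38.p6.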

Additional observations from a re-analysis of the deposited data

Results flagged for a closer look

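Of 48 sets of 4 libraries (8 genes in 6 groups) checked with Dixon's criterion, 13 held a library far from the other 3, a criterion by which chance marks about 1 in 20 sets. In 5 of the 13, all of Flt1 or Kdr, the other 3 libraries were listed at 0, where any value above 0 is marked, so the count is not set against chance. Vegfa was at 15.2 FPKM in spine GFP+ EMB+ replicate 1, Vegfb at 5.05 in spine GFP- EMB+ replicate 2 and Nrp2 at 7.68 in spine GFP+ EMB- replicate 2. The other 10 concern receptors near 0. Flt1 stood out at 2.1 FPKM in spine GFP- EMB+ replicate 4, 0.0182 in spine GFP+ EMB- replicate 4, 0.177 in spine GFP- EMB- replicate 2, 0.117 in long bone EMB+ replicate 2 and 0.158 in long bone EMB- replicate 1. Kdr stood out at 0.481 FPKM in spine GFP- EMB+ replicate 4, 0.00588 in spine GFP+ EMB- replicate 4, 0.0288 in spine GFP- EMB- replicate 4, 0.0835 in long bone EMB+ replicate 3 and 0.554 in long bone EMB- replicate 1.

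The EMB effect differed between populations, by limma's test of the difference, in 6 cases. Against long bone, the spine GFP- effect differed by -1.25 for Vegfa and 2.01 for Nrp1, and the spine GFP+ effect by -0.72 for Vegfa, -1.14 for Pgf and 1.48 for Nrp1. Between spine GFP+ and GFP- cells the effect on Nrp2 differed by -1.34.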

How the results depend on the processing

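The 6 tested members in 12 comparisons gave 72 changes, 34 of them called. Over 1362 alternative fits of these, 1278 kept direction and call, 23 lost the call, 25 gained one and 36 turned direction, none of the latter with a call on either side. Between GFP+ and GFP- spine EMB- cells 2 members were called, against 1 with a pseudocount of 5 and 4 with only the compared groups or with library weights. Under the filter of 5 FPKM, 2 members were called in place of 4 in each comparison of spine with long bone cells, since Vegfc and Pgf were no longer tested. For the difference of EMB effects between spine GFP+ and GFP- cells 1 member was called, against 0 with a pseudocount of 5, no filter or median-ratio scaling, 2 with quantile normalization, 3 with a pseudocount of 0.1 or library weights, and 0 to 2 with a library left out. The cause was not tested.

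Changes that turned sign, none of them called, were as follows. For EMB in spine GFP+ cells, Vegfb was at -0.18 with median-ratio scaling and -0.16 with quantile normalization, and Pgf at -0.14 and -0.0769. For EMB in long bone cells, library weights gave -0.0459 for Vegfa, 0.075 for Vegfb and -0.0444 for Vegfc, quantile normalization 0.01 for Vegfb and median-ratio scaling -0.0063 for Vegfc. For spine GFP+ against long bone EMB- cells, Vegfb was at 0.15 with median-ratio scaling and 0.28 with quantile normalization, which gave Vegfa 0.12. For spine GFP- against long bone EMB- cells, Vegfb was at 0.0216 with quantile normalization and Vegfa at -0.0588 with library weights. For the differences from long bone, Pgf (GFP-) was at 0.0631 with a pseudocount of 0.1, and in GFP+ cells Vegfb was at -0.0754 with median-ratio scaling and -0.17 with quantile normalization, and library weights gave 0.0382 for Vegfc and 0.11 for Nrp2.

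With 1 library left out, changes that turned sign, none called, ranged as follows. With EMB in spine GFP+ cells, Vegfc spanned -0.0939 to 0.0712 and Pgf -0.0391 to 0.1844. With EMB in long bone cells, Vegfb spanned -0.2018 to 0.1695 and Vegfc -0.0659 to 0.1687. Between GFP+ and GFP- EMB+ cells, Vegfa spanned -0.1128 to 0.0872 and Vegfc -0.2704 to 0.0203. Between spine GFP+ and long bone cells, Vegfb spanned -0.0447 to 0.2321 in EMB+ and -0.2429 to 0.0806 in EMB- cells. For the EMB difference of spine GFP+ minus long bone cells, Vegfb spanned -0.0138 to 0.3575 and Vegfc -0.1817 to 0.053. Nrp2's EMB difference of spine GFP- minus long bone cells, 0.81 (adjusted p = 0.114), was called without long bone EMB- replicate 4 (1.14, adjusted p = 0.00643).

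With the replicate block, in 20 libraries without long bone EMB+, Vegfa between GFP+ and GFP- EMB- cells gained a call (adjusted p = 0.0332), and no other member changed its call. Long bone EMB- libraries shared blocks with the same-numbered spine libraries in that fit. The EMB comparisons in long bone were also fitted, as an alternative chosen after seeing the data, with neighbouring title codes as the block. Their deviations correlated at -0.0969 to 0.296, so the pairing is not given by the data, and Pgf (adjusted p = 0.00847), Nrp1 (0.011) and Nrp2 (0.00152) stayed called. Without read depth, values near 0 carry no counting error.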
